A study of Mus musculus with 12 samples.

Results

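The genes described here are markers of Cajal-Retzius cells together with the core of the reelin pathway, 10 genes taken by symbol out of 52636 genes in each count table. They are Reln, Trp73, Ndnf, Cacna2d2, Lhx5, Ebf3 and Nhlh2 on the cell type side, and Reln as ligand, Vldlr and Lrp8 as receptors and Dab1 as adaptor on the pathway side. The dentate gyrus of C57BL/6 mice was the tissue, and its total RNA was sequenced as 12 libraries, 3 for each of 4 groups. The groups were wild type mice (WT), mice with a knockout of Fst (KO), knockouts that received the vector AAV9-CB::GFP (GFP vector), and mice described as overexpressing that received AAV9-CB::Fst (Fst vector). The genotype of the Fst vector group, the ages, how the knockout was made, which cells the vectors reach and whether a library holds RNA of several mice are not stated by the labels. Fst encodes follistatin, a secreted antagonist of activins.

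Cajal-Retzius cells are early-born neurons of the outermost cortical and hippocampal layer. In the hippocampus a number of them persist after birth along the hippocampal fissure, next to the outer molecular layer of the dentate gyrus. They secrete reelin, a large extracellular glycoprotein. Reelin binds the lipoprotein receptors encoded by Vldlr and Lrp8 (the latter also known as ApoER2), which leads Src family kinases to phosphorylate the adaptor Dab1. The pathway is known for positioning neurons, granule cells of the dentate gyrus included, and, in the adult, for modulating NMDA receptors and synaptic plasticity. In the adult hippocampus reelin is also made by GABAergic interneurons, so a bulk level of Reln sums over both sources.

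Promoters are shown for 3 marker genes that were lower together in KO (Reln, Trp73 and Cacna2d2) and for Lrp8, the receptor gene with the largest difference between the vector groups. RefSeq sequences (GRCm38.p6) that run from 250 bases before to 50 bases after a start site were found for 8 of the 10 genes; there was no entry for Ndnf and Lhx5. Capitals mark matches to CCCNNGGGA, a core of the site bound by EBF factors such as Ebf3, or to CAGCTG, an E-box of the kind bound by basic helix-loop-helix factors such as Nhlh2, searched on both strands. No matches overlapped in these 4 windows. Each is written 5′ to 3′ on the strand of the gene. Upstream is meant among the windows found, as the annotated spans of Trp73 and Lrp8 begin further upstream.
Reln, chr5:22344656-22344955, minus strand: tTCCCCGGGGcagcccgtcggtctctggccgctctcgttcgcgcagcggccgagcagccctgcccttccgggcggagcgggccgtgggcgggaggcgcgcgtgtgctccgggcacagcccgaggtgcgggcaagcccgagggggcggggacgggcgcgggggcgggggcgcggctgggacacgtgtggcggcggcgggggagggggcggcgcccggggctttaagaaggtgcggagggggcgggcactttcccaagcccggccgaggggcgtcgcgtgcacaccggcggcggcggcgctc
Trp73, upstream start, chr4:154139826-154140125, minus strand: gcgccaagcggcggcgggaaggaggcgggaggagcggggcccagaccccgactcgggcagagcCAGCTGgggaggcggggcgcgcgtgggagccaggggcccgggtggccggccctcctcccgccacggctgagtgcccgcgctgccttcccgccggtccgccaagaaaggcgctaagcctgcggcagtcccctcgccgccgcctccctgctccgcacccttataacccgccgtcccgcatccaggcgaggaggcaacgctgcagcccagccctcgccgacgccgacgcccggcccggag
Cacna2d2, chr9:107399630-107399929, plus strand: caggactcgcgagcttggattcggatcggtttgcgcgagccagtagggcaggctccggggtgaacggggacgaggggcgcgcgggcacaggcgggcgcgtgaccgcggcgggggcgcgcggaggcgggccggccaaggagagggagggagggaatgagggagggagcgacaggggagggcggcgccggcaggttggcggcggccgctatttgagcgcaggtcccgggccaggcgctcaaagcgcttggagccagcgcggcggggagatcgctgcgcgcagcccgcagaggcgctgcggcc
Lrp8, most upstream start, chr4:107802635-107802934, plus strand: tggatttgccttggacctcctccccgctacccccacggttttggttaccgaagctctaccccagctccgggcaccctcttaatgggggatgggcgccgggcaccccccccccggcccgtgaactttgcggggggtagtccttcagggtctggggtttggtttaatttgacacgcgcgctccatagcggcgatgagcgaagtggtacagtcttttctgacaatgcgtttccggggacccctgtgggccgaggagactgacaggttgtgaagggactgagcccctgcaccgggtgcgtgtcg

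The Reln window held 1 match to CCCNNGGGA, from position -249 relative to the start, a sequence found in 6.56% of the 32851 promoters of the same length. The Trp73 window held 1 CAGCTG, from position -187, as did 16.3% of all promoters. Neither TAATTA, a homeodomain core (5.29% of promoters), nor CAGACA, the CAGA box of SMAD proteins (6913 of 32851 promoters), occurred in these 4 windows. CpG dinucleotides numbered 47 in the Reln window, 43 in Cacna2d2, 39 in Trp73 and 21 in Lrp8, against a median of 7 over all promoters. Windows at other starts, not shown, held 6 for Trp73 and 5 and 4 for Lrp8. The Lrp8 window with 4 also held 1 match to CCCNNGGGA, from position -102. These letters describe the windows and are no evidence of binding.

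Libraries held 8081824 to 11331337 counts, and levels are given as CPM, the count divided by its library's total and multiplied by 1000000. Fst itself had 33 to 51 counts per library in WT and 2 to 4 in KO, 0 to 1 with the GFP vector and 1497 to 2078 with the Fst vector. The share of ribosomal RNA was 0.575 to 0.679% in WT F1, KO M2, GFP vector M2, Fst vector M2 and Fst vector F, and 0.0092 to 0.0211% in the 7 others. Granule cell markers were present throughout, with Prox1, the transcription factor that defines these neurons, at 226 to 457 CPM. Libraries are named by their titles (M1, M2, F or F1), whose sex differs from that in the descriptions for F1 and M2 of both WT and KO. In whole tissue, fewer cells of a type and less RNA per cell cannot be told apart.

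Per kilobase of annotated exon, the adaptor and receptors stood far above the Cajal-Retzius genes. In WT, Dab1 had 20.3 ± 1.19 CPM per kilobase (SD, n = 3), Lrp8 12.1 ± 0.754 and Vldlr 10.9 ± 0.377. Reln followed with 3.21 ± 0.254 CPM per kilobase, then Ndnf with 2.52 ± 0.276, Cacna2d2 with 2.34 ± 0.092 and Trp73 with 1.60 ± 0.175. The other transcription factor genes were scarce, at 0.542 ± 0.209 CPM per kilobase for Nhlh2, 0.322 ± 0.060 for Lhx5 and 0.161 ± 0.078 for Ebf3. In this order the libraries of neighbouring genes did not overlap, except for Ndnf and Cacna2d2. The lengths add up all annotated exons of a gene (23738 bases for Reln), which understates a gene of which mainly a shorter transcript is made.

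**Figure D1:**
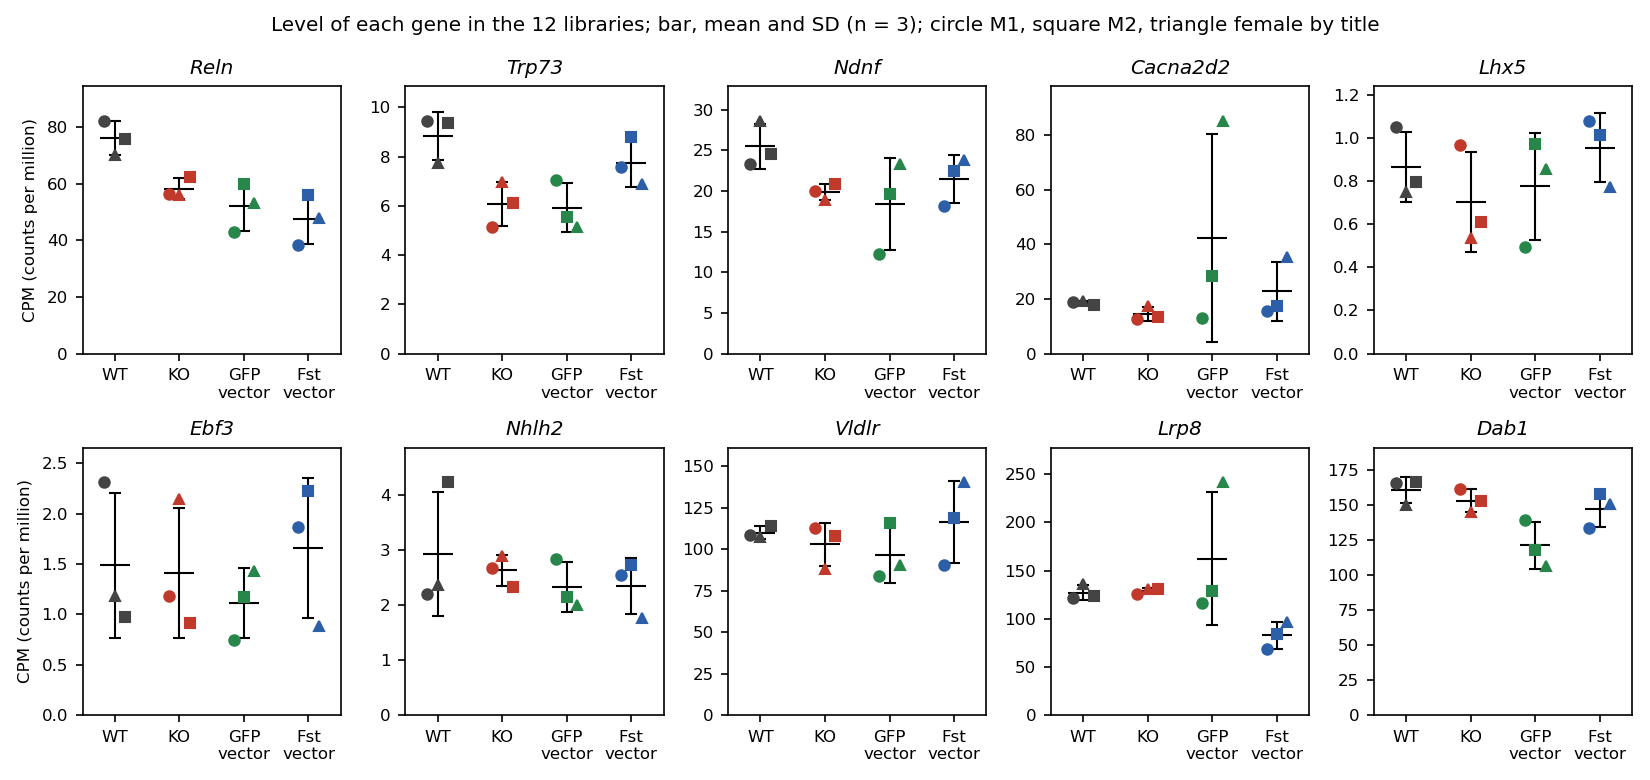
CPM of the 10 genes (vertical axes) in the 12 libraries, grouped on the horizontal axes as WT, KO, GFP vector and Fst vector; bars give the mean and SD of 3 libraries. Reln, Trp73, Ndnf and Cacna2d2 were lower in all KO libraries than in all WT libraries, Lrp8 was lowest in the 3 Fst vector libraries, and GFP vector F stood apart in Cacna2d2 (85.3 CPM) and Lrp8 (242 CPM).

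Between KO and WT, the better-expressed Cajal-Retzius genes among the members lay lower without Fst, while the receptors and the adaptor lay close together. Reln, Trp73, Ndnf and Cacna2d2 had every KO library below every WT library, at 76.6, 68.7, 78.0 and 78.5% of the WT mean. That makes 4 of the 9 members tested, where 7.04% of the 14919 genes tested were lower without overlap. Higher without overlap were 0 of 9 members, against 3.98%. These counts use CPM by library totals, by which 56.4% of all genes had a negative log2 change. With the TMM scaling of the test 50.3% did, and separation on that scale was not counted. After adjustment 0 of 9 passed, where 0.0268% of all genes did (edgeR quasi-likelihood test, Benjamini-Hochberg adjusted p under 0.05), and DESeq2 called 0 as well. At unadjusted p under 0.05 the same 4 members were lower and 0 were higher, against 3.01% and 2.95% of all genes. The median log2 change was -0.16 over the 9 members and -0.00085 over all genes. Both the choice of these genes and the earlier lists drew on results of these data, so their shared direction is a description.

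Reln (ENSMUSG00000042453, chromosome 5, 21884454 to 22344702, minus strand, GRCm38 as for all positions) had the smallest p of the members. Its level was 82.3 CPM in WT M1, 70.3 in WT F1 and 75.8 in WT M2, and 56.4 in KO M1, 56.0 in KO F1 and 62.6 in KO M2. The lowest WT library thus stood above the highest KO library, and the spread within either group was small. The log2 change was -0.37 ± 0.08 (SE, edgeR quasi-likelihood, adjusted p = 0.0773), short of the threshold. It moved to the other side of it with library totals in place of TMM scaling (0.0496). So it did with sex by title (0.0160) or replicate name (0.0336) as a term, and with no filter on low counts (0.00281). In that order these settings called 30, 23 and 46 over all genes, against 4 in the fit as reported. Reln also passed without WT F1 (0.0302) or KO M2 (0.0452), the WT and KO libraries nearest each other. The adjusted p stayed above the threshold with the ribosomal RNA share as a term (0.133). It also did so without WT M1 (0.337), WT M2 (0.439), KO M1 (0.266) or KO F1 (0.258). It was 0.244 in DESeq2 and 1 when the spread was shared over all 12 libraries. Between libraries with little ribosomal RNA (WT M1 and M2, KO M1 and F1) the log2 difference of mean CPM was -0.49, and between WT F1 and KO M2, with much of it, -0.17.

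Trp73, which encodes the p53 family member p73, a factor that Cajal-Retzius cells need to survive, lies on chromosome 4 at 154056253 to 154140208 (minus strand). It stood at 9.45, 7.72 and 9.35 CPM in WT M1, F1 and M2 and at 5.16, 6.96 and 6.09 CPM in KO M1, F1 and M2. The WT libraries were the higher ones, with a gap that rests on 48 to 106 counts per library. Its log2 change was -0.53 ± 0.18 (edgeR quasi-likelihood, adjusted p = 0.632).

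Ndnf, which encodes a secreted neurotrophic factor also made by neurogliaform interneurons, lies on chromosome 6 at 65671590 to 65712326. It had 23.3, 28.6 and 24.5 CPM in WT M1, F1 and M2, and 20.0, 18.8 and 20.8 CPM in KO M1, F1 and M2. On the log2 scale the change was -0.34 ± 0.11 (adjusted p = 0.522). Cacna2d2, an auxiliary subunit gene of voltage-gated calcium channels (chromosome 9, 107399612 to 107529343), stood at 18.9, 19.1 and 17.7 CPM in WT and 12.7, 17.6 and 13.5 CPM in KO, in the same order. KO F1 (17.6 CPM) almost reached the lowest WT library (17.7 CPM), so the separation of the groups rests on a narrow margin. Its log2 change was -0.33 ± 0.13 (adjusted p = 0.751).

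The remaining transcription factor genes were too scarce to place. Nhlh2, a basic helix-loop-helix factor, had 21 to 48 counts per WT library and 23 to 27 per KO library (log2 change -0.16 ± 0.29). Ebf3, of the EBF family, had 11 to 22 and 9 to 20 counts (-0.04 ± 0.41), and the groups overlapped for both genes. Lhx5, a LIM homeodomain factor, had 7 to 10 counts per WT library and 5 to 9 per KO library, too few for the filter of the test. Summed over libraries it had 20 counts in KO and 26 in WT, a ratio of rates of 0.815; its exact 95% interval, for counting error alone, was 0.431 to 1.52. Differences of the size seen for Reln were not detectable for these 3 genes at this depth.

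Among the receptors and the adaptor, no difference exceeded the spread between KO and WT libraries. Vldlr (chromosome 19, 27216484 to 27254231) had 107 to 114 CPM in WT and 88.1 to 113 in KO, a log2 change of -0.08 ± 0.07. For Lrp8 the ranges were 121 to 136 and 126 to 131 CPM (0.04 ± 0.06). Dab1 (chromosome 4, 103619359 to 104744844) had 150 to 166 CPM in WT and 145 to 162 in KO (-0.05 ± 0.06). The ranges overlapped for all 3 genes, and their adjusted p lay between 0.947 and 0.973 (edgeR quasi-likelihood).

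**Figure D2:**
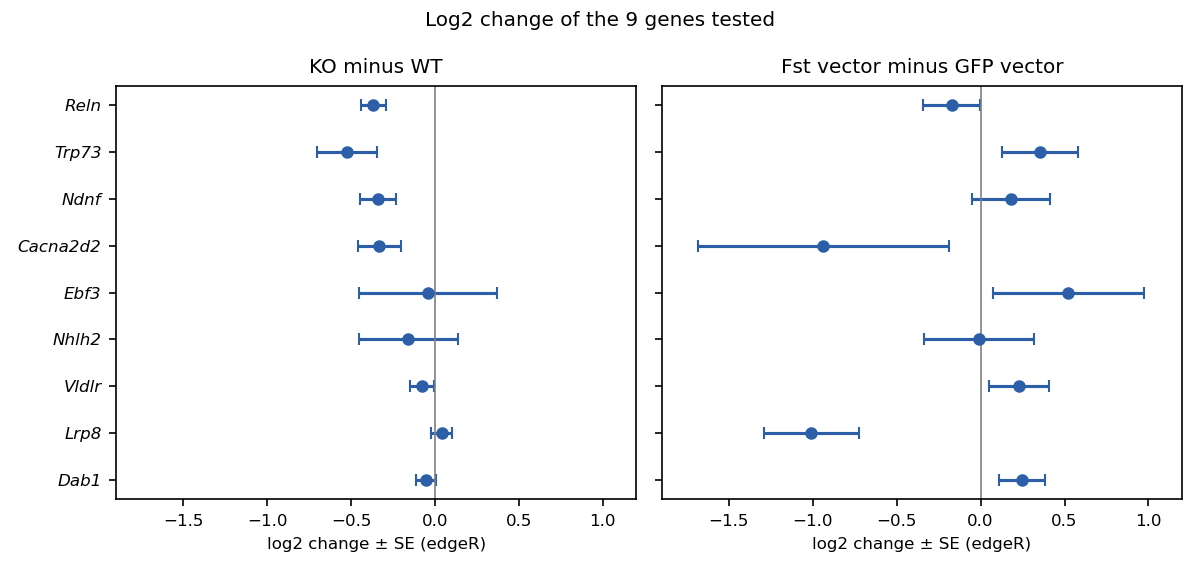
Log2 change with its SE (horizontal axes) of the 9 genes tested, from edgeR, for KO minus WT (left) and Fst vector minus GFP vector (right). On the left Reln, Trp73, Ndnf and Cacna2d2 lie between -0.53 and -0.33; on the right Lrp8 lies at -1.01 ± 0.28 and Cacna2d2, with a wide error, at -0.94 ± 0.75.

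Markers of other cell types were read beside these genes. Of 13 interneuron markers tested, 0 passed after adjustment. Without overlap 4 were lower (Gad2, Lamp5, Lhx6 and Adarb2) and 1 was higher (Npy), where 7.04% and 3.98% of all genes were. Log2 changes were positive for 5 and negative for 8. Gad2, a GABA-synthesising enzyme gene, had a log2 change of -0.21 ± 0.08 (adjusted p = 0.736) and the neuropeptide gene Npy 0.29 ± 0.11 (0.694). The summed level of the list was 823 to 883 CPM in WT and 766 to 868 in KO, which overlap. All 13 markers had counts in every library. The part of interneurons in the lower Reln and Ndnf levels was not tested.

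Newborn neuron markers lay lower in KO, with a summed level of 60.5 to 63.1 CPM against 73.9 to 78.6 in WT, and 3 of 4 tested lower without overlap, against 7.04% of all genes. Sox11, the largest part of the sum, overlapped between the groups, at 43.6 to 48.4 CPM in WT and 38.8 to 46.0 in KO. Igfbpl1 had a log2 change of -1.14 ± 0.31 (adjusted p = 0.301) and Dcx, which encodes doublecortin, -0.41 ± 0.11 (0.326). Eomes, a marker of their dividing precursors, had no count in KO F1 and was not tested. Meningeal fibroblast markers, of the membrane that follows the hippocampal fissure, summed to 33.6 to 54.5 CPM in WT and 29.6 to 45.7 in KO. Of 9 tested, 7 had a negative log2 change, with Slc13a4, a sulfate transporter gene, at -1.12 ± 0.35 (0.522) and Ogn at 0.48 ± 0.20 (0.768). The part of these cells in the lower Cajal-Retzius levels was not tested. Of the further Cajal-Retzius markers, 5 of 6 could be tested and 0 passed, adjusted or not, with Lhx1 at -0.77 ± 0.42 and the chemokine receptor gene Cxcr4 at -0.39 ± 0.30. The other 3 lay near 0, with Calb2 at -0.03 ± 0.17, Ebf1 at 0.03 ± 0.32 and Tbr1 at 0.04 ± 0.08. Calb2 and Tbr1 averaged 64.0 and 61.4 CPM in WT, above Trp73, Ndnf and Cacna2d2. Ebf2 was at 0 in 4 of these 6 libraries.

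**Figure D3:**
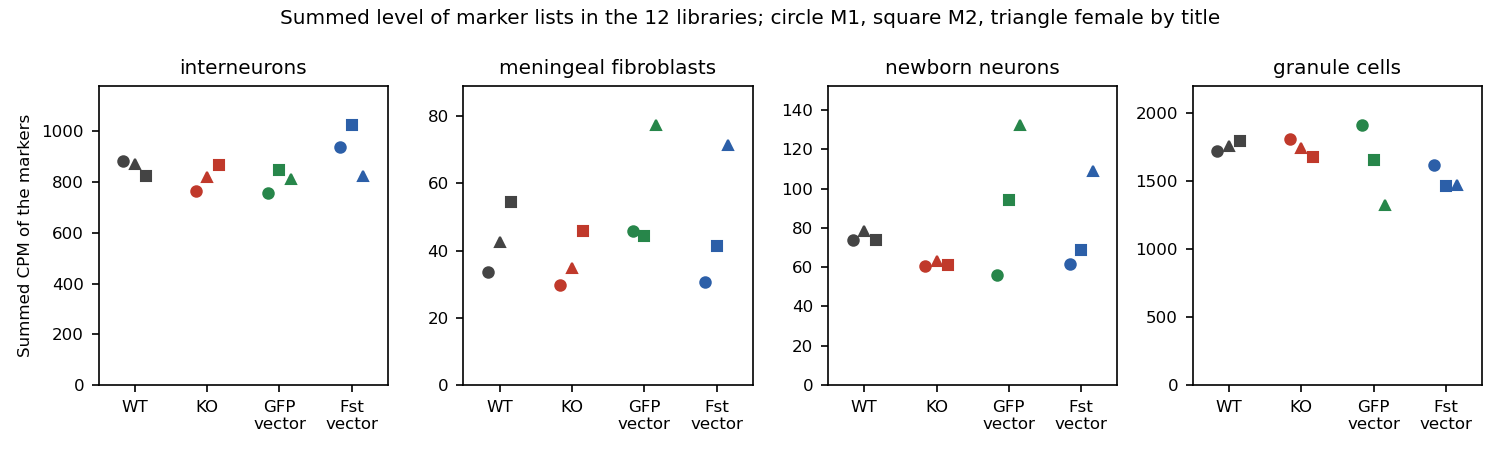
Summed CPM of the markers of interneurons, meningeal fibroblasts, newborn neurons and granule cells (vertical axes) in the 12 libraries by group. The newborn neuron sum was 60.5 to 63.1 CPM in KO against 73.9 to 78.6 in WT without overlap, and ran from 55.8 to 132 CPM with the GFP vector. Its largest part was Sox11, with a mean of 45.9 CPM in WT and 42.0 in KO. In GFP vector F, the library at 132 CPM, Sox11 alone had 113 CPM.

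The comparison of the vectors asks which of these transcripts differ between animals given Fst and knockouts given GFP. Lrp8 was lower with Fst in all libraries, mean Reln levels were below that of KO in both, and the remaining members overlapped between the groups. Of the 9 members tested, 0 passed after adjustment, where 0.0798% of 15034 genes did (edgeR quasi-likelihood). DESeq2 called 1, Lrp8, and 249 of the 14710 genes to which it gave an adjusted p. With replicate name as a term (the replicate block), Lrp8 passed in edgeR, and 141 over all genes did. In the edgeR fit without that term, at unadjusted p under 0.05, 1 of 9 was lower and 0 were higher, against 5.16% and 4.34% of all genes. Without overlap 1 of 9 was lower and 0 were higher, against 6.01% and 10.5%. The median log2 change was 0.18 over the 9 members and 0.0063 over all genes.

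Lrp8 (ENSMUSG00000028613, chromosome 4, 107802261 to 107876840, plus strand) stood at 116 CPM in GFP vector M1, 129 in M2 and 242 in F. With the Fst vector it stood at 68.4 CPM in M1, 83.7 in M2 and 96.4 in F, so the groups did not overlap. The Fst vector mean was 51.1% of the GFP vector mean and 65.2% of the WT mean, and these 3 libraries were below all 9 others, a statement across tables that were deposited separately. By the edgeR quasi-likelihood test its log2 change was -1.01 ± 0.28 (SE, adjusted p = 0.332). With the replicate block the adjusted p was 0.0376 and the log2 change -0.94. It was also under the threshold with sex by title as a term (0.0365), in 1 fit of all 12 libraries (0.0445) and in DESeq2 (0.0155). The fit of 12 shares its estimate of spread with WT and KO, whose libraries differed less among themselves. Over all genes that fit called 412 for the vectors, the replicate block 141, the sex term 132 and DESeq2 249, against 12 in the fit as reported. Lrp8 did not pass with library totals, no filter, the ribosomal RNA term or any 1 library left out. Without GFP vector F the log2 change was -0.60 (adjusted p = 0.336), and without Fst vector M2 the adjusted p was 0.771. Within the libraries with little ribosomal RNA the log2 difference of mean CPM was -1.39, with 2 GFP vector libraries and 1 Fst vector library, and within those with much of it -0.52, with 1 and 2.

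GFP vector F stood apart from the other 2 libraries of its group in several genes. Cacna2d2 had 12.9 CPM in GFP vector M1, 28.4 in M2 and 85.3 in F, and 15.4, 17.5 and 35.3 CPM in Fst vector M1, M2 and F. The female library was the highest in both groups, and the groups overlapped. The log2 change was -0.94 ± 0.75 (adjusted p = 0.764) and became 0.09 without GFP vector F. In that library the neuropeptide gene Npy stood at 214 CPM, against 33.5 and 106.5 in GFP vector M1 and M2, the transcription factor gene Sox11 at 113 CPM against 44.3 and 71.9, and the calcium-binding protein gene Calb1 at 67.8 CPM against 234 and 135. Npy had 39.7 to 56.3 CPM with the Fst vector and 20.1 to 29.0 CPM in WT and KO. Npy, Sox11 and Calb1 were picked here after their values were seen. The part of this difference in the levels of Cacna2d2 and Lrp8 was not tested.

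For Reln the vector groups overlapped. It had 42.9, 60.1 and 53.1 CPM in GFP vector M1, M2 and F, and 38.4, 56.0 and 47.9 CPM in Fst vector M1, M2 and F. In both groups M1 was the lowest and M2 the highest, and Reln was lower with Fst in 3 of 3 same-named pairs. The pairs were taken from correlations in these same data. The share of all genes with the same direction in 3 of 3 pairs was not counted, so such counts only describe, here and for the genes below. The fitted log2 change was -0.17 ± 0.17 (adjusted p = 0.801, and 0.506 with the replicate block). Over all groups the mean Reln level ran from 76.1 ± 6.02 CPM in WT to 58.3 ± 3.69 in KO, 52.1 ± 8.63 with the GFP vector and 47.4 ± 8.81 with the Fst vector (SD, n = 3 each), across tables deposited separately. In that order WT and KO did not overlap; the neighbours after them did.

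Trp73 had 7.05, 5.55 and 5.15 CPM in GFP vector M1, M2 and F, and 7.56, 8.81 and 6.86 CPM in Fst vector M1, M2 and F. The lowest Fst vector library lay just under the highest GFP vector library, so the groups overlapped. The level was higher with Fst in 3 of 3 same-named pairs, a count with no share over all genes beside it. The log2 change was 0.36 ± 0.23 (adjusted p = 0.697, and 0.537 with the replicate block). Group means in descending order were 8.84 ± 0.970 CPM in WT, 7.75 ± 0.986 with the Fst vector, 6.07 ± 0.902 in KO and 5.92 ± 1.002 with the GFP vector (SD, n = 3 each), each overlapping the next, again across separate tables. Ndnf had 12.3, 19.6 and 23.4 CPM with the GFP vector and 18.2, 22.5 and 23.8 CPM with the Fst vector, in the order M1, M2 and F. Its log2 change was 0.18 ± 0.23 (adjusted p = 0.852, and 0.600 with the replicate block). It was higher with Fst in 3 of 3 pairs, and lowest in M1 and highest in F in both groups.

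The rarer factors again gave no usable difference. Nhlh2 had 21 to 23 counts per GFP vector library and 16 to 27 per Fst vector library (log2 change -0.01 ± 0.33), and the sign was not stable across scalings. Ebf3 had 6 to 15 and 8 to 22 counts (0.52 ± 0.45). For Lhx5 there were 23 summed counts with the GFP vector and 28 with the Fst vector, a ratio of rates of 1.21 with an exact 95% interval of 0.670 to 2.19.

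The other receptor and the adaptor lay higher on average with the Fst vector, with libraries that overlapped. Vldlr had 83.9, 116 and 90.2 CPM in GFP vector M1, M2 and F, and 90.4, 118 and 140 CPM in Fst vector M1, M2 and F. Its log2 change was 0.23 ± 0.18 (adjusted p = 0.750, and 0.521 with the replicate block), with 3 of 3 pairs higher. Dab1 had 139, 118 and 106 CPM with the GFP vector and 133, 158 and 151 CPM with the Fst vector, in the same order of libraries. GFP vector M1 exceeded Fst vector M1, so these groups overlapped too. edgeR gave a log2 change of 0.24 ± 0.14 (adjusted p = 0.645). Dab1 means were 161 ± 9.39 CPM in WT and 153 ± 8.29 in KO, and 121 ± 16.6 with the GFP vector (SD, n = 3 each), in separately deposited tables.

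Whether the vector effect differed from the knockout effect was tested as the change between the vectors minus the change between KO and WT, in 1 fit of all 12 libraries. Of the 9 members, 0 passed after adjustment, where 0.281% of 15632 genes did (edgeR quasi-likelihood), and 2 passed at unadjusted p under 0.05, against 9.95% of all genes. These were Trp73, with a difference of 0.88 ± 0.28 on the log2 scale (edgeR adjusted p = 0.252), and Lrp8, with -1.06 ± 0.33 (edgeR adjusted p = 0.273). For Trp73 the effects had opposite signs, lower in KO than in WT and higher with Fst than with GFP. For Reln the difference was 0.19 ± 0.19 (adjusted p = 0.808), with both effects negative. Over the alternatives run, adjusted p ranged from 0.0961 to 0.516 for Trp73 and from 0.0664 to 0.520 for Lrp8.

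Beyond the core, 50 further genes of the reelin pathway were examined: kinases, adaptors, downstream effectors, turnover factors, reelin proteases and other partners. In KO against WT, 48 could be tested and 0 passed after adjustment (edgeR quasi-likelihood; DESeq2 also called 0), 1 being higher and 1 lower at unadjusted p under 0.05, no larger a share than the 2.95% and 3.01% of all genes. Without overlap 2 were higher and 2 lower, against 3.98% and 7.04% of all genes. Log2 changes were positive for 24 and negative for 24 and ran from -0.20 to 0.17. Clu, which encodes clusterin, an apolipoprotein that can bind the reelin receptors, had 650 to 696 CPM in WT and 604 to 616 in KO (log2 change -0.14 ± 0.05, adjusted p = 0.751). Pik3ca, a catalytic subunit gene of phosphoinositide 3-kinase, had 46.2 to 53.8 and 55.1 to 58.0 CPM (0.17 ± 0.08, adjusted p = 0.837). Both differences were small.

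In the vector comparison the same list spread more widely. Of 49 genes tested, 0 passed after adjustment (edgeR quasi-likelihood; DESeq2 called 1, and 249 over all genes). A positive log2 change was found for 17 and a negative one for 32, where 49.0% of all genes were negative. At unadjusted p under 0.05, 2 were higher and 5 lower, against 4.34% and 5.16% of all genes. The median was -0.11, against 0.0063 over all genes. Grin2a, which encodes an NMDA receptor subunit that reelin signalling acts on, had 368, 309 and 334 CPM in GFP vector M1, M2 and F, and 185, 213 and 254 CPM in Fst vector M1, M2 and F. All Fst vector libraries lay below all GFP vector libraries. Both vector groups lay below WT and KO in the other table, at 392.4 to 429 CPM. The log2 change was -0.67 ± 0.15 (edgeR quasi-likelihood, adjusted p = 0.185), and DESeq2 called it (0.00722), as did 1 fit of all 12 libraries (0.00597). That fit shares its estimate of spread with WT and KO and called 412 genes over all. Over the alternatives run its adjusted p ranged from 0.00597 to 0.696. Cdk5r2, which encodes an activator of the kinase Cdk5, had 280 to 340 CPM with the GFP vector and 224 to 246 with the Fst vector (-0.47 ± 0.13, adjusted p = 0.284, and 0.0170 in the fit of 12 libraries), the latter near the 208 to 230 CPM of WT and KO.

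By role, all 3 kinase genes and all 4 adaptor and exchange factor genes had negative log2 changes in the vector comparison, between -0.32 and -0.04. Downstream effectors split into 8 positive and 10 negative, and proteases into 1 and 5. In KO against WT the 4 adaptor and exchange factor genes were also negative, between -0.11 and -0.03, and the downstream effectors split into 9 and 9. None of these groups held a gene that passed after adjustment; at unadjusted p under 0.05 the vector comparison had 1 kinase gene, 3 downstream effectors and 3 other partners, and KO against WT had 1 downstream effector and 1 partner. Over all genes 1429 of 15034 and 889 of 14919 had such a p, so these few genes say little about a role.

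**Figure D4:**
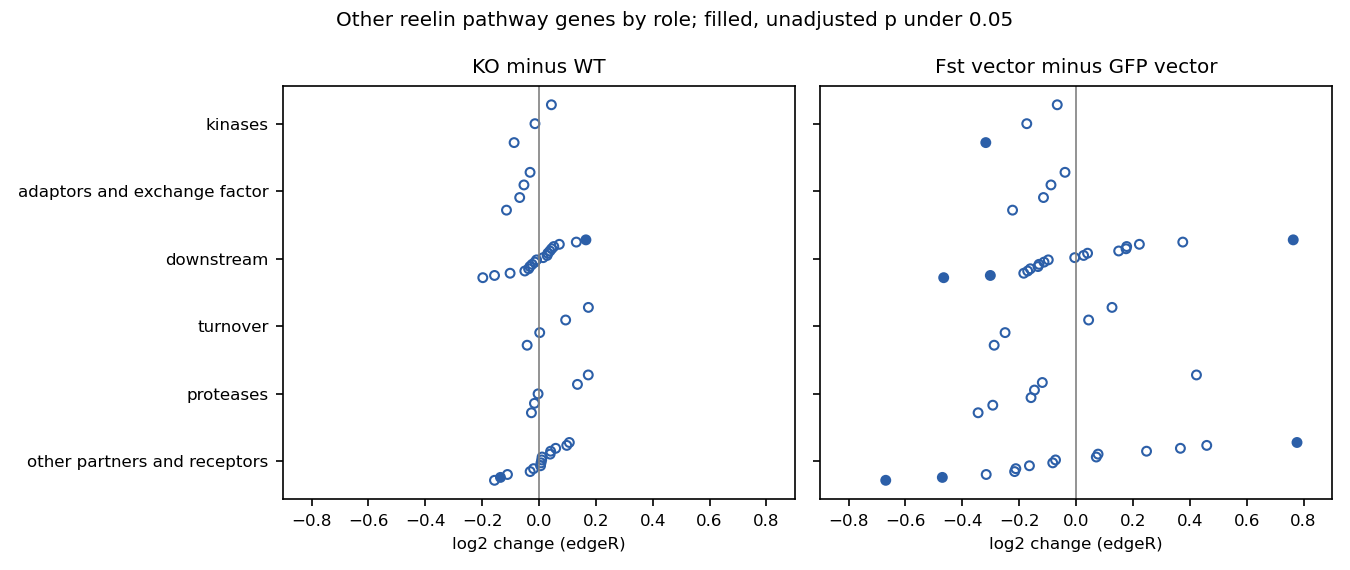
Log2 changes from edgeR (horizontal axes) of the reelin pathway genes outside the 10 members, by role (vertical axis), for KO minus WT (left) and Fst vector minus GFP vector (right); filled points have an unadjusted p under 0.05. Values run from -0.20 to 0.17 on the left and from -0.67 to 0.78 on the right.

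Marker lists for the vector groups give the setting of these values. Interneuron markers summed to 758 to 849 CPM with the GFP vector and 824 to 1025 with the Fst vector, with Sst, the somatostatin gene, at 0.87 ± 0.29 (adjusted p = 0.413) and Nos1 at 1.07 ± 0.39 (0.475) on the log2 scale. Of the 13, 10 were positive and 3 negative, the latter being Npy at -1.28 ± 0.65, Vip at -0.24 ± 0.37 and Gad2 at -0.04 ± 0.30. Granule cell markers summed to 1321 to 1909 and 1459 to 1613 CPM, with Dsp, the desmoplakin gene, at -1.60 ± 0.54 (adjusted p = 0.445, and 0.0286 with the replicate block) and Prox1 at -0.35 ± 0.15 (0.526). Of these 6, 4 were negative and 2 positive, Dock10 at 0.25 ± 0.21 and Calb1 at 0.18 ± 0.52. Meningeal fibroblast markers summed to 44.3 to 77.4 and 30.5 to 71.4 CPM, with the collagen gene Col1a1 at -1.34 ± 0.68 (0.620) and Lum, the lumican gene, at 0.67 ± 0.37 (0.645). Of the newborn neuron markers 3 of 5 could be tested, with Dcx at 0.73 ± 0.32 (0.530) and Sox11 at -0.60 ± 0.37 (0.691). Of the further Cajal-Retzius markers, 4 of 6 could be tested and 0 passed, with Calb2, the calretinin gene, at 0.42 ± 0.24 (0.657) and Ebf1 at 0.15 ± 0.43 (0.943); mossy cells and some interneurons also make calretinin.

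Genes whose level followed that of Reln most closely over the 12 libraries were looked up among non-members with at least 5 CPM on average. The highest Pearson correlations of log2(CPM + 1) were those of Zfp654 (0.947), a zinc finger gene, Mindy2 (0.926), a deubiquitinase gene, Zfp518b (0.923), Phf14 (0.920), which encodes a PHD finger protein, and Dnal1 (0.919), a dynein light chain gene. Within the 6 libraries of WT and KO these correlations were 0.796 to 0.967, and within the 6 vector libraries 0.906 to 0.965. As for Reln, all 5 had their highest group mean in WT, for Zfp654 at 34.2 CPM against 29.1 in KO. The members were left out of this search beforehand, and none of the 5 is in the further lists used here. The values describe the ranking of many genes, with depth and RNA composition shared by all genes of a library.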

How the data were processed

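Raw counts for each Ensembl gene were deposited in 1 table of WT and KO and 1 of both vector groups, as the headers show. The submitters' processing notes name GRCm38. An aligner, a counter and a strand setting were not given in the sources used here. Lines that name no gene, 6 and 12, carried 0 counts and were left out. Symbols, coordinates and exon lengths came from GENCODE M21. Without strand, antisense reads cannot be told apart; antisense genes overlapping the members' exons had at most 3 counts in a library. CPM used library totals; 3 counts equal 0.265 to 0.371 CPM.

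All genes passing filterByExpr were fitted with edgeR 4.0.16 (R 4.3.3; TMM scaling, robust quasi-likelihood test, Benjamini-Hochberg adjustment at 0.05), each comparison within 1 table of 6 libraries and the difference of the effects over both tables. SE was the log2 change over the root of the F statistic. The fit was tested on simulated data. Alternatives were DESeq2 1.42.0, library totals, no filter, terms for replicate, sex or ribosomal RNA share, 1 fit of 12 libraries, and leaving out each library. By its labels every group held both sexes, so its libraries do not all come from the same mouse. Nothing further says how the replicates were made, so part of the spread that the p-values reflect may be technical. Intervals cover counting error only.

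The comparisons share replicate names. Deviations from group means correlated at 0.399 (M1), 0.278 (M2) and 0.521 (F) between same-named vector libraries, which were taken as pairs on that basis alone; F is also the female library. The vector fit as reported held no term for these pairs. With the replicate block, 1 of the 9 members tested passed, and 141 genes over all, against 12 in the fit as reported. For WT and KO the correlations were 0.250, 0.353 and -0.0663, so names were not taken to pair them. There the block is only an alternative setting.

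The members and lists were chosen with earlier results of these data known. All 10 members are named, and from each further list the 2 genes with the smallest p. Marker lists covered interneurons, meningeal fibroblasts, granule, mossy, newborn, CA1 and CA3 with CA2 neurons, blood and further Cajal-Retzius genes.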

Additional observations from a re-analysis of the deposited data

How the results depend on the processing

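In KO against WT, 0 members passed the threshold in the fit as reported, and 1, Reln, did with library totals, with no filter on low counts, with the replicate block (adjusted p = 0.0336), with sex by title as a term, and when either WT F1 or KO M2 was left out; leaving out single libraries gave 0 to 1. Not every WT or KO library correlated best with its namesake. In the vector comparison 0 passed as reported, and 1, Lrp8, did in DESeq2, with the replicate block, with the sex term and in 1 fit of 12 libraries. The block changed no other member's call, but among the list genes it called Dsp, Fibcd1 and Lamp5 (log2 0.97, adjusted p = 0.0475). The difference of the effects had 0 throughout. The log2 changes of Reln, Trp73, Ndnf and Cacna2d2 in KO against WT and of Lrp8 with the vectors kept their direction in all alternatives run. Signs turned for low counts or small changes. In KO against WT, Ebf3 was 0.0313 with the ribosomal RNA term and -0.471 to 0.412 leaving out libraries, Nhlh2 -0.324 to 0.219 and Vldlr -0.144 to 0.0185. With the vectors, Nhlh2 was 0.0257 with library totals, 0.000219 with no filter and 0.054 with the ribosomal RNA term, and -0.122 to 0.156 leaving out libraries, Ndnf -0.0327 to 0.389 and Cacna2d2 -1.40 to 0.0918. For the difference, Cacna2d2 ran from -1.08 to 0.41 and Nhlh2 from -0.241 to 0.307. The causes were not tested. Over all genes, calls in KO against WT numbered 4 as reported, 46 with no filter, 30 with sex, 23 with the block and 1 in the fit of 12 libraries; with the vectors they numbered 12, and 230, 132, 141 and 412 in that order, with 249 in DESeq2 and 4 with the ribosomal RNA term. For the difference they numbered 44, and 210 with no filter. Library totals moved the lower share of unadjusted calls, from 449 of 889 to 581 of 886 in KO against WT and from 776 of 1429 to 627 of 1450 with the vectors; for the difference it went from 883 of 1556 to 639 of 1668. Leaving out a library gave 2 (WT M2) to 17 (WT F1) calls, 1 (Fst vector M2) to 29 (GFP vector M1), and 13 (KO M1) to 183 (GFP vector M1) for the difference. Depth limits Lhx5, Ebf3 and Nhlh2, with 4 to 48 counts per library.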

Other observations

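Lists for other cells of the region gave these values. In KO against WT, mossy cell markers (4 tested) had Calcrl at -0.37 ± 0.18 and Csf2rb2 at -0.36 ± 0.18 on the log2 scale, with Drd2 at 0.02 ± 0.34 and Ajap1 at 0.03 ± 0.09. Of the CA1 markers (4 tested) Wfs1 stood at -0.23 ± 0.10 and Fibcd1 at 0.18 ± 0.12, and of the CA3 and CA2 markers (4 tested) Rgs14 stood at -0.19 ± 0.07 and Coch at 0.46 ± 0.22. Blood transcripts (4 tested) had Hbb-bs at -0.48 ± 0.14 and Hba-a2 at -0.44 ± 0.21. Granule cell markers (6 tested) had Calb1 at -0.15 ± 0.05 and C1ql2 at 0.16 ± 0.07. In the vector comparison the CA1 marker Fibcd1 had -2.24 ± 0.53 (adjusted p = 0.252, 0.00661 with the replicate block, 0.00014 in DESeq2 and 0.0267 in 1 fit of 12 libraries), and Mpped1 0.36 ± 0.19. The CA3 markers Cpne4 and Iyd had 0.76 ± 0.40 and -0.90 ± 0.51, the mossy cell markers Csf2rb2 and Drd2 0.62 ± 0.56 and 0.33 ± 0.36, and the blood transcripts Hbb-bs and Hba-a1 0.53 ± 0.21 and 0.38 ± 0.21. None of these genes passed after adjustment in the fits as reported (edgeR quasi-likelihood).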
